A study of Arabidopsis thaliana with 7 samples.

Results

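The circadian clock genes described here were 10 Arabidopsis (Arabidopsis thaliana) genes taken by their identifiers from a list of the core oscillator: CCA1 (AT2G46830), LHY (AT1G01060), RVE8 (AT3G09600), PRR9 (AT2G46790), PRR7 (AT5G02810), PRR5 (AT5G24470), TOC1 (AT5G61380), GI (AT1G22770), ELF4 (AT2G40080) and LUX (AT3G46640). They are 10 of the 32833 genes in the count files, and the rule that picks them uses no measured value, although they were proposed with earlier results of these data known. All 10 passed the filter on low counts, which kept 20600 genes.

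The plant clock is a network of transcription factors that repress each other in turn over the day. CCA1 and LHY peak around dawn and bind the evening element in promoters of dusk-phased genes, the PRR proteins follow one after another through the day and repress CCA1 and LHY, and the evening complex of ELF4, ELF3 and LUX closes the loop at night. RVE8 is related in sequence to CCA1 but activates genes with evening elements in the afternoon. In roots the clock has been proposed to run with fewer of these loops than in shoots and to receive signals from the shoot.

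The 7 libraries were poly(A)-selected RNA of whole roots. The question was what changes in roots that run short of nitrogen (N) when the shoot-to-root signalling proteins called CEPDs are missing. The cepd group (4 libraries, replicates 1, 2, 3 and 4) carried mutations in ROXY6, ROXY7, ROXY8 and ROXY9, the glutaredoxin-like genes that encode the CEPDs, made by CRISPR/Cas9 editing and combined in 1 quadruple mutant line in the Col-0 background. The Col-0 group (3 libraries, replicates 1, 3 and 4) was the unedited wild type, and 1 further Col-0 library was left out by the authors because leaf tissue had got into the sample. Seedlings of both groups first stood for 7 d on full nutrition (FN) plates, which supplied KNO3 (2 mM), NH4NO3 (1 mM) and glutamine (1 mM). They then stood for 2 d on low nitrogen (LN) plates, at 22 °C. In these plates KNO3 was 0.1 mM, NH4NO3 was 50 µM, KCl (3 mM) was added and glutamine was not. A library pooled the roots of 50 seedlings from 5 plates, and the 4 replicates were independent experiments. Light was continuous, at 70 to 80 µmol per square metre and second, with no dark period on the plates. The time of day of harvest is not given in the sources used here, and how far the clocks of pooled seedlings ran in step cannot be read from 1 harvest. In a whole-root sample, fewer cells that express a gene and less RNA of that gene in each cell cannot be told apart.

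The cepd libraries held 30758339 to 46611731 counts and the Col-0 libraries 37292558 to 38474492. Each clock gene drew 95 counts or more in every library. Raw counts of the mutated genes, not scaled to the library size, overlapped between genotypes for ROXY6, ROXY7 and ROXY8. They were 0 or 1 for ROXY9 in all libraries. ROXY6 had 104, 113, 210 and 161 counts in cepd and 196, 211 and 226 in Col-0. Its overlap came only from cepd replicate 3, the library with the most counts. Divided by the library totals, ROXY6 was lower in each cepd library than in each Col-0 library. An edited gene may still be transcribed, so such counts check the genotype only in part. Of 12 listed leaf markers, 11 were tested and 6 were higher in cepd by the test described below, with a summed level of 520.8 to 699.6 CPM (counts scaled to the library size, per 1e6) in cepd and 313.1 to 427.7 CPM in Col-0. LHCB1.5 was at 0 in every library, RBCS1A averaged 107.6 ± 17.8 CPM in cepd and 41.0 ± 5.18 CPM in Col-0 (SD, n = 4 and 3), and the part of these genes in the clock results was not tested. Chloroplast- and mitochondria-encoded genes together drew 0.055 to 0.156% of the counts in cepd libraries and 0.031 to 0.039% in Col-0 libraries. The cause of this difference was not tested. Of 10 root markers, SHR and SCR, which pattern stele and endodermis, did not pass the test, the root-hair genes EXPA7 and COBL9 fell by 0.76 and 0.61 on the log2 scale and PYK10 rose by 1.05.

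Because CCA1, LHY and RVE8 act through the evening element, its positions upstream of the clock genes are given before the values. The letters AAAATATCT were searched on both strands of the 1000 bases before each annotated gene start of the RefSeq genes of build TAIR10.1. They occurred upstream of 5 of the 10 clock genes (PRR5, TOC1, GI, ELF4 and LUX), against 6.94% of 32546 nuclear genes. The matching stretches are printed 5′ to 3′ along the strand of the gene, with the element in capitals, and read AGATATTTT where it lies on the opposite strand. PRR9 also had the element on the opposite strand, 27 bases after its start. The LUX, TOC1 and nearest PRR5 elements lie within 250 bases of the start, and those of GI and ELF4 lie farther out.
LUX, 53 bases before the start (chr3:17182964-17183022, plus strand): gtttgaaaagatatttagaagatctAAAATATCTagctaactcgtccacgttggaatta
TOC1, 151 bases before the start (chr5:24674787-24674845, plus strand): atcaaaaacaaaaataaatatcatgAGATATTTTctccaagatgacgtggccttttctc
PRR5, 187 bases before the start (chr5:8358700-8358758, minus strand): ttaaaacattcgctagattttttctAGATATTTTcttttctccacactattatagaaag
PRR5, 292 bases before the start (chr5:8358805-8358863, minus strand): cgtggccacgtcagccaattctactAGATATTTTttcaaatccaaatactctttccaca
PRR5, 716 bases before the start (chr5:8359229-8359287, minus strand): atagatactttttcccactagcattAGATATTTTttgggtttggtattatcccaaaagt
ELF4, 536 bases before the start (chr2:16735456-16735514, minus strand): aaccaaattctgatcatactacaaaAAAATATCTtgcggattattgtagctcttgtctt
GI, 591 bases before the start (chr1:8061135-8061193, plus strand): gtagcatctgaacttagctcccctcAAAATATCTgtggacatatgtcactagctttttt
GI, 777 bases before the start (chr1:8060949-8061007, plus strand): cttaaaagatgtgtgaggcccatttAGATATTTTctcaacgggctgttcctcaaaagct
GI, 809 bases before the start (chr1:8060917-8060975, plus strand): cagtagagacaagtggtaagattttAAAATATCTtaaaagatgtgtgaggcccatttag

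The dawn genes had other letters. The G-box CACGTG, which many bHLH and bZIP factors bind, lay upstream of CCA1, LHY, RVE8, PRR9, PRR7 and LUX, that is 6 of the 10 clock genes against 14.1% of all promoters. It reads the same on both strands and is printed in capitals for the 3 MYB-like genes, which carried no evening element in this window.
CCA1, 193 bases before the start (chr2:19245373-19245428, plus strand): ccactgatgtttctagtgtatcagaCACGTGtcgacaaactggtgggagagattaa
LHY, 80 bases before the start (chr1:37921-37976, minus strand): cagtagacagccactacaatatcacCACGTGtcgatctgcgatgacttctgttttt
RVE8, 814 bases before the start (chr3:2945400-2945455, plus strand): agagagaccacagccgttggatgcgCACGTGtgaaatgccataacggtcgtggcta
RVE8, 888 bases before the start (chr3:2945326-2945381, plus strand): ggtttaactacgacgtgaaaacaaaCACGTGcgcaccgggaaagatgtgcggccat

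The CCA1-binding site AAAAATCT, searched on both strands, was found upstream of 3 clock genes (LHY, PRR9 and PRR5), against 20.6% of all promoters. Either of the LUX-binding words GATACG and GATTCG was found upstream of 7, against 39.9%. TGACG, the core letters bound by the TGA factors with which the CEPDs interact, was found upstream of 8, against 54.1%. The evening element and the CCA1-binding site share their last letters ATCT but cannot be the same match, and the last PRR5 element and its CCA1-binding site begin 187 and 198 bases before the start. These matches describe letters in the reference genome and do not show that a factor binds there.

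**Figure D1:**
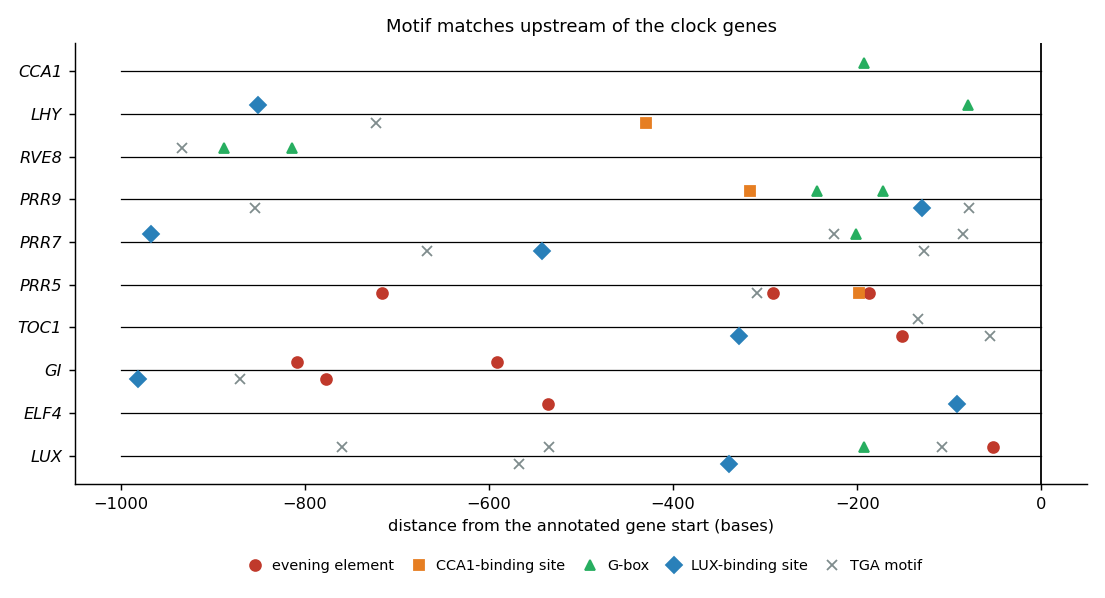
Positions of motif matches in the 1000 bases before the annotated start of each clock gene. The x axis is the distance from the start in bases, symbols above and below a line stand for the strand of the gene and the opposite strand, and evening elements (red circles) appear only for PRR5, TOC1, GI, ELF4 and LUX.

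Across the clock genes, RVE8, ELF4 and TOC1 rose in cepd roots and no member fell in the fit without pairing. With the libraries paired by replicate number, which was assumed to mark the experiment, LHY also rose and GI fell. In the paired fit these differences ran from -0.48 to 0.63 on the log2 scale, none of them as large as a log2 fold change of 1. In edgeR's quasi-likelihood test, with Benjamini-Hochberg (BH) adjustment over 20600 genes, 3 of the 10 clock genes were called higher in cepd at an adjusted p under 0.05, where 9.64% of all genes tested were, and 0 were called lower, where 8.3% were. DESeq2 and limma-voom also called 3 higher and 0 lower, and at an unadjusted p under 0.05 the counts were 3 higher and 1 lower. The count of higher genes was 1 when cepd replicate 2, cepd replicate 3, Col-0 replicate 3 or Col-0 replicate 4 was left out. The replicate number as a block raised the counts to 4 higher (13.9% of all genes) and 1 lower (13.2%). The log2 fold change was above 0 for 7 of the 10 clock genes and for 10541 of the 20600 genes, with medians of 0.21 and 0.0071. The direct comparison of libraries gave the same 3 genes. RVE8, TOC1 and ELF4 were higher in each cepd library than in each Col-0 library, which held for 15.3% of all genes, and 0 clock genes were lower in each cepd library, which held for 13.8%.

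**Figure D2:**
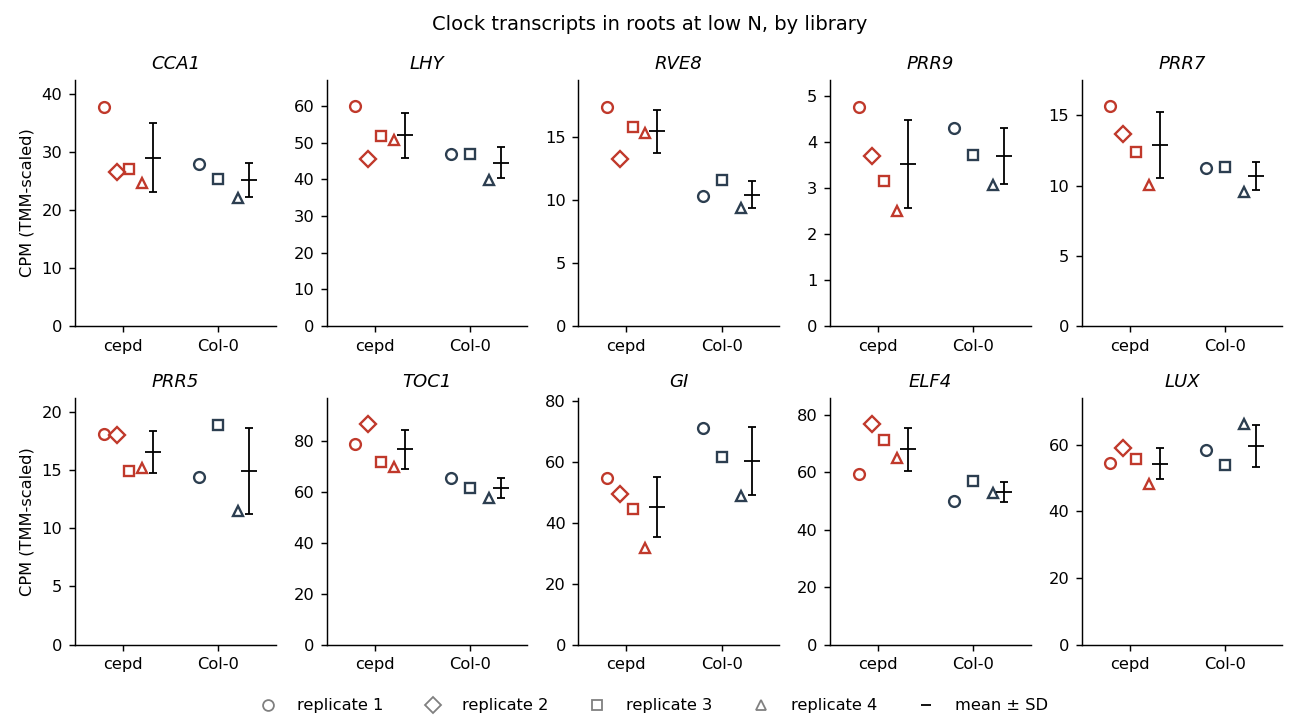
CPM of the 10 clock genes in each library, with 4 cepd libraries left of 3 Col-0 libraries in each panel. Marker shapes give the replicate number, and the bars show the mean ± SD; the 2 genotypes do not overlap for RVE8, TOC1 and ELF4.

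Among the MYB-like genes, RVE8 had the largest difference of the 10 members. RVE8 stood at 17.4, 13.3, 15.8 and 15.3 CPM in cepd replicates 1, 2, 3 and 4, against 10.3, 11.5 and 9.39 CPM in Col-0 replicates 1, 3 and 4. The lowest cepd library lay above the highest Col-0 library. RVE8 was 0.57 ± 0.11 (SE) higher in cepd on the log2 scale (edgeR, BH-adjusted p = 0.00664). It had an adjusted p under 0.05 in each of the 17 other fits, with values of 0.50 to 0.73. It did not reach the log2 fold change of 1 asked for in a further alternative.

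LHY, the MYB repressor that pairs with CCA1, had 60.0, 45.4, 51.8 and 50.6 CPM in cepd and 47.0, 46.9 and 39.8 CPM in Col-0. Only cepd replicate 2, which has no Col-0 partner, lay among the Col-0 libraries. The difference of 0.22 ± 0.10 (SE) did not pass the test without pairing (edgeR, BH-adjusted p = 0.171) but passed with the replicate block at 0.28 ± 0.06 (adjusted p = 0.00918). That call was lost when replicate 1 or replicate 4 was also left out (adjusted p = 0.0803 and 0.0732). CCA1 had 37.9, 26.6, 27.2 and 24.7 CPM in cepd against 28.1, 25.4 and 22.1 CPM in Col-0. Its cepd replicate 1 stood far above the other libraries, which overlapped. CCA1 did not pass the test, with a log2 difference of 0.21 ± 0.15 (SE) and an edgeR adjusted p of 0.368, or 0.0541 with the block.

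The pseudo-response regulators, which repress CCA1 and LHY, differed among themselves, and of the 4 only TOC1 passed the test. TOC1, the dusk-phased member of the family, had 78.8, 86.4, 71.5 and 69.7 CPM in cepd and 65.3, 61.3 and 57.6 CPM in Col-0. All cepd libraries were above all Col-0 libraries. The log2 difference was 0.32 ± 0.09 (SE, edgeR BH-adjusted p = 0.0375), and 0.26 ± 0.05 with the block (adjusted p = 0.00648). Without the block the call was lost when 1 library was left out, namely cepd replicate 1 (adjusted p = 0.0891), cepd replicate 2 (0.0932), cepd replicate 3 (0.055), Col-0 replicate 3 (0.114) or Col-0 replicate 4 (0.114). With the block it held without replicate 1, 3 or 4 (adjusted p of 0.0235 to 0.047).

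PRR7, which acts in the morning, had 15.6, 13.6, 12.4 and 10.0 CPM in cepd against 11.2, 11.3 and 9.55 CPM in Col-0. All but cepd replicate 4 lay above the Col-0 libraries, yet the log2 difference of 0.27 ± 0.14 (SE) did not pass (edgeR adjusted p = 0.223). PRR5, its afternoon relative, had 18.1, 18.0, 14.9 and 15.1 CPM in cepd and 14.4, 18.8 and 11.5 CPM in Col-0. The 3 Col-0 libraries of PRR5 spanned the whole cepd range. PRR9, the earliest PRR of the day and the lowest member, had 4.75, 3.69, 3.14 and 2.49 CPM in cepd and 4.29, 3.72 and 3.06 CPM in Col-0. PRR5 and PRR9 overlapped fully between genotypes, with log2 differences of 0.15 ± 0.16 and -0.07 ± 0.21 (SE).

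GI, which stabilises the F-box protein ZTL and is itself dusk-phased, was the member with the largest decrease. GI had 54.7, 49.5, 44.6 and 31.9 CPM in cepd, against 71.1, 61.5 and 48.9 CPM in Col-0. The genotypes overlapped, since cepd replicates 1 and 2 stood just above Col-0 replicate 4. For replicates 1, 3 and 4, the cepd library was below the Col-0 library of the same number. Without pairing the log2 difference of -0.42 ± 0.18 (SE) did not pass (edgeR BH-adjusted p = 0.147, unadjusted p = 0.0449). With the block it was -0.48 ± 0.06 and passed (adjusted p = 0.000476), and it also passed when replicate 1, 3 or 4 was left out of the blocked fit (adjusted p of 0.000403 to 0.0101).

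Of the evening complex, ELF4 rose and LUX did not pass the test. ELF4, a small protein of the complex, had 59.3, 76.6, 71.1 and 64.8 CPM in cepd and 49.9, 56.8 and 52.8 CPM in Col-0. The lowest cepd library, replicate 1, exceeded the highest Col-0 library, replicate 3. ELF4 was 0.35 ± 0.10 (SE) higher in cepd on the log2 scale (edgeR BH-adjusted p = 0.0313), or 0.29 ± 0.05 with the block (adjusted p = 0.00363). When 1 library was dropped from the fit without the block, the adjusted p passed 0.05 for cepd replicate 2 (0.0798), cepd replicate 3 (0.084), Col-0 replicate 1 (0.0596), Col-0 replicate 3 (0.057) or Col-0 replicate 4 (0.083), whereas the call with the block held without any 1 of the paired replicates (0.0224 to 0.0293). LUX, the DNA-binding subunit, had 54.4, 59.1, 55.7 and 48.2 CPM in cepd against 58.6, 54.1 and 66.3 CPM in Col-0. The genotypes overlapped, and the log2 difference of -0.13 ± 0.09 (SE) had an edgeR adjusted p of 0.353. LUX overlaps AT3G46650 on the opposite strand, which drew 880 counts over the 7 libraries. The library kit does not mark strand, so reads of the overlap cannot be assigned.

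**Figure D3:**
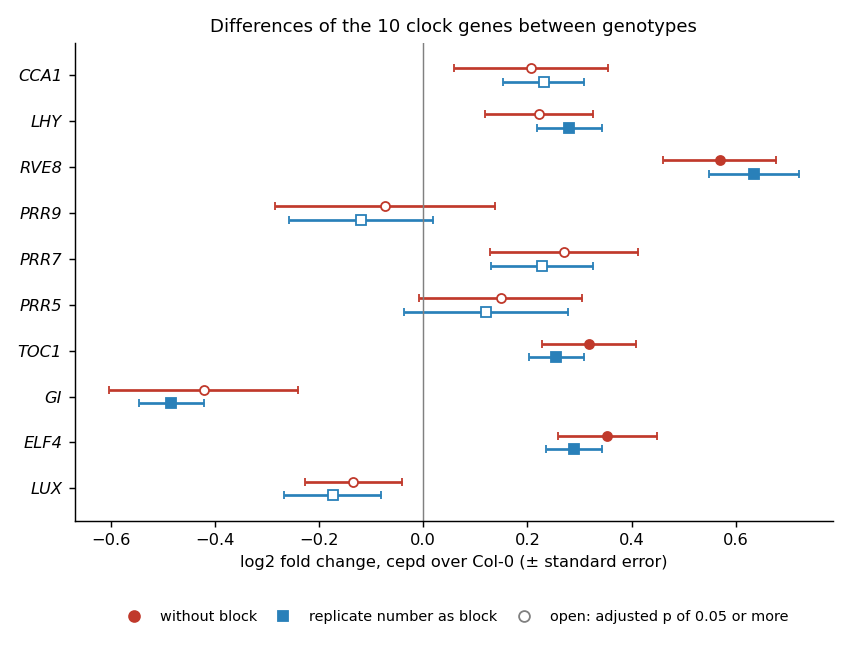
Log2 fold change of cepd over Col-0 for each clock gene, with bars of 1 SE from edgeR. Red circles are the fit without a block and blue squares the fit with the replicate number as block, filled where the adjusted p is under 0.05: RVE8, TOC1 and ELF4 are filled in both, LHY and GI only with the block.

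A clock transcript depends on the hour of harvest, so the genotypes were also compared within each replicate number. For this, libraries of equal replicate number (1, 3 and 4) were assumed to come from the same experiment and taken as pairs. RVE8 was higher in cepd in all 3 pairs, by 0.75, 0.45 and 0.70 on the log2 scale. TOC1 was higher by 0.27, 0.22 and 0.28 and ELF4 by 0.25, 0.32 and 0.29. For these 3 genes each cepd library lay above each Col-0 library, so any pairing would give increases. The pairs therefore add nothing on their direction. The differences lay close together for TOC1 and ELF4.

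GI was lower in cepd in all 3 pairs, by -0.38, -0.46 and -0.62 on the log2 scale. CCA1 (0.43, 0.09 and 0.16), LHY (0.35, 0.14 and 0.35) and PRR7 (0.48, 0.13 and 0.07) were higher in each pair, with replicate 1 highest or level with the highest. PRR9, PRR5 and LUX changed sign between pairs. With 3 pairs, no exact test of a single gene can pass 0.05, so these values are given without one.

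**Figure D4:**
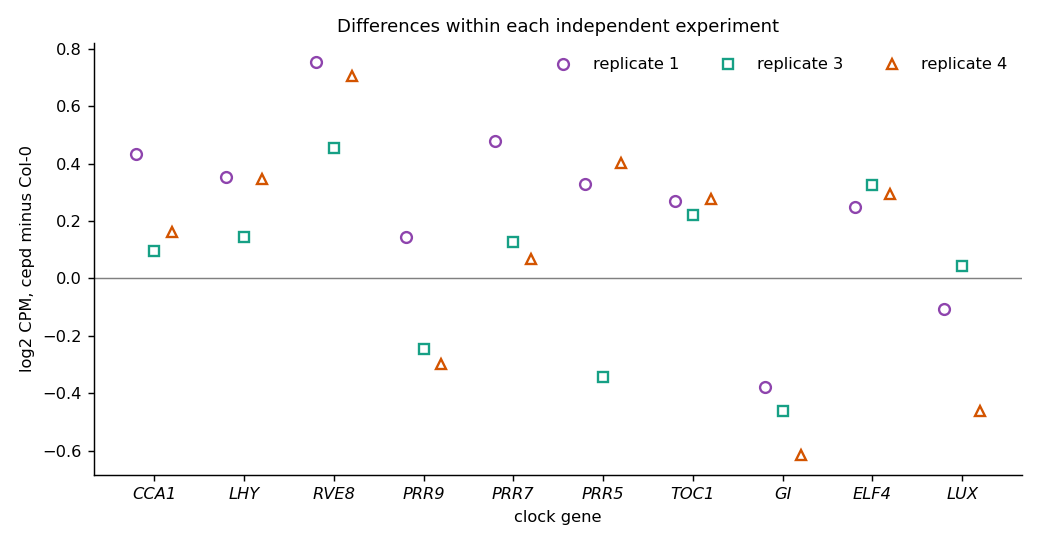
Log2 CPM of cepd minus Col-0 within replicates 1, 3 and 4 for each clock gene, with 1 symbol per replicate number. Equal numbers were assumed to mark the same experiment. All 3 points lie above 0 for CCA1, LHY, RVE8, PRR7, TOC1 and ELF4 and below 0 for GI.

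Among the clock genes, GI and CCA1 differed between replicate numbers. In the blocked edgeR fit, a test of the replicate number passed for 2 of the 10 clock genes, GI (BH-adjusted p = 0.00668) and CCA1 (0.0426), where 8.09% of all genes passed. Relative to replicate 1, GI was -0.09, -0.25 and -0.66 in replicates 2, 3 and 4 on the log2 scale, and CCA1 was -0.41, -0.32 and -0.48. GI was thus lowest in replicate 4 of both genotypes, and CCA1 was highest in replicate 1. This test was added after the data were seen. The other 8 did not pass, with adjusted p of 0.072 for ELF4 to 0.794 for LUX.

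The spread between libraries of a genotype was largest for PRR9 and GI. The SD of log2 CPM within genotypes was 0.34 for PRR9 and 0.31 for GI, larger than in 90.0% and 88.3% of all genes, against 0.12 for TOC1 and 0.13 for LUX, larger than in 41.6% and 46.8%. The median over all genes was 0.14. The members that were steady between experiments and those that varied therefore both occurred among the dusk-phased genes.

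The balance of dawn and dusk transcripts was described by the mean log2 CPM of CCA1 and LHY minus that of TOC1, PRR5, GI, LUX and ELF4. It was -0.01, -0.56, -0.27 and -0.19 in cepd replicates 1, 2, 3 and 4, and -0.33, -0.43 and -0.46 in Col-0 replicates 1, 3 and 4. The mean was -0.25 ± 0.23 in cepd and -0.41 ± 0.07 in Col-0 (SD, n = 4 and 3). The genotypes overlapped because of cepd replicate 2, and within replicates 1, 3 and 4 the cepd library had the higher balance each time.

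Summed leaf-marker levels ranked with some of these genes. In both genotypes the libraries ranked by the summed leaf markers stood in the same order as when ranked by GI or by PRR9. No other member ranked this way in both genotypes. In Col-0 this order rested on GLDP1, at 219.8, 182.7 and 147.9 CPM in replicates 1, 3 and 4. GLDP1 was not higher in cepd (log2 difference of -0.12). With GLDP1 left out, the sum was lower in Col-0 replicate 3 than in Col-0 replicate 4. Cepd replicate 1 had the highest leaf-marker sum (699.6 CPM) and also the highest CCA1, LHY, RVE8, PRR9 and PRR7 of all 7 libraries. Between genotypes, cepd had the higher leaf-marker sum and the lower GI. Without cepd replicate 1 the RVE8 difference was 0.51 (edgeR adjusted p = 0.0174) and the ELF4 difference 0.41 (0.019), while the TOC1 difference was 0.31 and lost its call (0.0891), so that 2 clock genes were called higher. The part of the leaf markers in these values was not tested.

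Per length of exon, ELF4 was the most abundant clock transcript in both genotypes, at 109.8 ± 12.1 RPKM (CPM divided by the exon length in kilobases) in cepd and 85.9 ± 5.58 RPKM in Col-0 (SD, n = 4 and 3). TOC1 followed at 27.3 ± 2.72 RPKM in cepd and 21.9 ± 1.38 RPKM in Col-0. LHY (15.2 in cepd, 13.0 in Col-0), LUX (13.9 and 15.2), CCA1 (10.7 and 9.26) and GI (10.5 and 14.1) formed a middle group on the same scale. The summed exon length of LUX, 3916 bases, covers nearly the whole annotated gene, so its place in this order depends on the annotation. In cepd the ranges of LHY and LUX, LUX and CCA1, CCA1 and GI, and GI and PRR5 overlapped. In Col-0 those of LUX and GI, GI and LHY, and CCA1 and PRR5 did. GI thus ranked next to LUX in Col-0 and below CCA1 in cepd. PRR5 (9.85 and 8.88 RPKM), RVE8 (6.58 and 4.44), PRR7 (3.99 and 3.31) and PRR9 (1.64 and 1.73) were lowest in this order in both genotypes.

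The members varied together in part. Over the 7 libraries, Pearson's r of log2 CPM was 0.88 between LHY and RVE8, 0.87 between CCA1 and PRR7 and 0.86 between CCA1 and LHY, and -0.69 between RVE8 and LUX. PRR9 and GI had an r of 0.84, and ELF4 and TOC1 of 0.75. These coefficients describe 7 libraries of 2 genotypes that share experiments. The genes whose profile was most like that of TOC1 among 18850 genes with a mean of at least 1 CPM were AT5G55060, AT5G53010, AT5G07790, AT2G42270 and AT1G01760, with r of 0.992 to 0.996, and 769 genes exceeded 0.9. For CCA1 they were OCT2, AT3G22810, AT1G63420, AT5G06980 (LNK4) and DBE1, with r of 0.968 to 0.975, and 73 genes exceeded 0.9.

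Of 26 other clock genes, all were tested, and 8 rose in cepd while 0 fell, where 9.64% and 8.3% of all genes did. DESeq2 called 8 and 0, limma-voom 7 and 0, and 9 and 1 passed at an unadjusted p under 0.05. Their median log2 difference was 0.17, beside 0.0071 over all genes. With the block 10 rose and 1 fell, where 13.9% and 13.2% of all genes did. Without cepd replicate 1, cepd replicate 2, Col-0 replicate 3 or Col-0 replicate 4 the count of higher genes was 4, and without cepd replicate 3 it was 5.

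The largest increases were those of RVE2 and LNK2, and the RVE8 relative RVE4 rose as well. RVE2, a MYB-like gene also called CIR1, had 64.7, 67.2, 66.7 and 78.4 CPM in cepd and 38.9, 37.9 and 43.3 CPM in Col-0. RVE4, which acts with RVE8 in activating evening genes, had 48.5, 41.7, 43.4 and 42.4 CPM in cepd and 31.8, 31.4 and 32.5 CPM in Col-0. LNK2, a coactivator that RVE4 and RVE8 recruit, had 39.8, 30.8, 32.8 and 32.3 CPM in cepd and 22.7, 21.5 and 18.7 CPM in Col-0. For all 3 the lowest cepd library was above the highest Col-0 library. The log2 differences were 0.79 ± 0.09 for RVE2, 0.46 ± 0.07 for RVE4 and 0.70 ± 0.11 for LNK2 (SE), with edgeR BH-adjusted p of 0.000411, 0.00235 and 0.00207. The related RVE1, which links the clock to auxin, rose by 0.34 (adjusted p = 0.045).

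None of the other LNK genes was called higher in cepd, with or without the block. LNK1 had 24.8, 20.9, 21.5 and 14.6 CPM in cepd and 30.5, 26.0 and 24.4 CPM in Col-0. The genotypes overlapped only through cepd replicate 1, and LNK1 was lower in cepd in each pair, by -0.30, -0.27 and -0.74. LNK1 did not pass the edgeR test without the block (-0.40, BH-adjusted p = 0.114) and fell with it (-0.43, adjusted p = 0.0104). LNK3 and LNK4 did not pass, with log2 differences of -0.13 and 0.29. LNK4 was higher in cepd in each pair, by 0.57, 0.31 and 0.10, the same direction as LNK2.

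The remaining higher genes belong to the evening complex and the PRR family or act on chromatin. ELF3, the scaffold of the evening complex, averaged 61.0 ± 5.12 CPM in cepd and 44.2 ± 5.39 CPM in Col-0 (SD, n = 4 and 3) and rose by 0.47 on the log2 scale. BOA, a relative of LUX, rose by 0.51, PRR3, a partner of TOC1, by 0.43 and JMJD5, a JmjC-domain protein, by 0.43. Their edgeR BH-adjusted p were 0.0114, 0.032, 0.0473 and 0.0216 in this order, and for each the lowest cepd library lay above the highest Col-0 library. ZTL, the F-box protein that targets TOC1 for degradation, rose with the block (0.20, adjusted p = 0.0356, against 0.0877 without it), and so did TIC (0.19, adjusted p = 0.0153, against 0.381). The other 15 genes, among them FKF1, LKP2, CHE and COR27, did not pass in either fit.

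**Figure D5:**
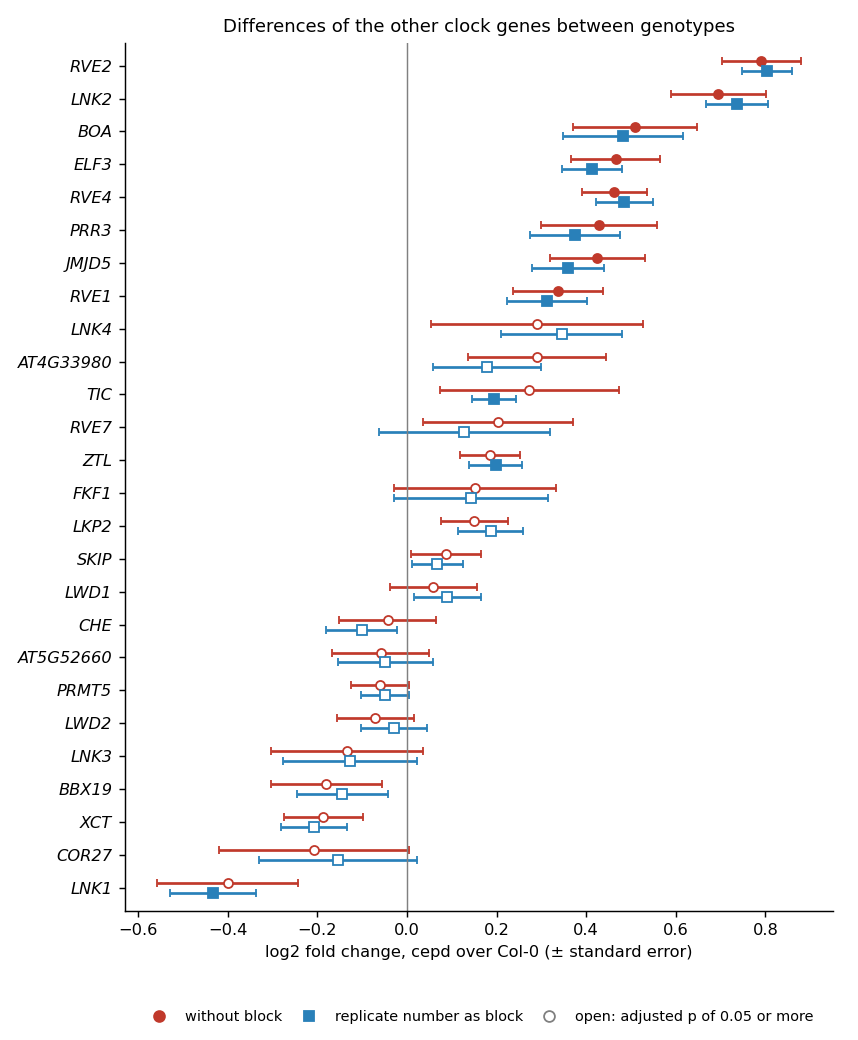
Log2 fold change of cepd over Col-0, with bars of 1 SE, for 26 other clock genes ordered by size. Circles are the edgeR fit without a block and squares the fit with it, filled where the adjusted p is under 0.05; RVE2, LNK2, BOA, ELF3, RVE4, PRR3, JMJD5 and RVE1 are filled in both.

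Clock-controlled output genes showed no common direction. Of 14 listed, 11 were tested, 2 rose and 0 fell (2 and 2 with DESeq2, 2 and 0 with limma-voom, 4 and 2 at an unadjusted p under 0.05), with a median log2 difference of 0.15. Over all genes 9.64% rose and 8.3% fell, so the 2 of 11 are near the background. COL1 was at 0 in every library, and PIF4 and AT1G69570 did not pass the filter. CAT3, the evening-phased catalase, had 773.3, 695.7, 507.6 and 512.9 CPM in cepd and 484.3, 344.0 and 399.9 CPM in Col-0. CAT1, its neighbour on chromosome 1, had 23.7, 22.1, 20.4 and 21.8 CPM in cepd and 18.4, 15.9 and 16.6 CPM in Col-0. Both were higher in every cepd library, CAT3 by 0.60 ± 0.17 and CAT1 by 0.37 ± 0.08 (SE, edgeR BH-adjusted p = 0.0407 and 0.0129). Without Col-0 replicate 3 the count of higher output genes was 0, and without cepd replicate 1, cepd replicate 2 or Col-0 replicate 4 it was 1.

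CAT2, the morning-phased catalase, was lower in every cepd library, at 410.8 to 426.3 CPM in cepd and 465.3 to 495.8 CPM in Col-0. Its log2 difference of -0.20 missed the threshold without the block (edgeR BH-adjusted p = 0.0505) and passed with it (-0.19, adjusted p = 0.0141). The catalase genes are similar in sequence, and how reads shared between them were counted is not given in the sources used here. GRP8, an RNA-binding protein of a slave oscillator, missed the threshold in the same fit (-0.27, adjusted p = 0.0596) and passed with the block (-0.24, 0.0186). Without a block, the count of lower output genes was 2 with DESeq2 and 1 with DESeq2 size factors, with the stricter filter or without Col-0 replicate 1. The DOF factor CDF3 rose with the block (0.32, adjusted p = 0.00832, against 0.124 without it). GRP7, a relative of GRP8 and among the most abundant output transcripts, averaged 1258 ± 50.2 CPM in cepd and 1316 ± 95.0 CPM in Col-0 (SD, n = 4 and 3) and did not pass.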

How the data were processed

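Roots were sampled as described for the 7 libraries, prepared from total RNA with an unstranded poly(A) kit. The authors deposited raw counts per gene for each library. The submitters' processing notes name CASAVA 1.8.2, STAR 2.5.2b-2, HTSeq 0.9.1, DESeq2 2.11.40.6 and build TAIR10, and the strand setting of the counting is not given in the sources used here.

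The test was run with edgeR 4.0.16 under R 4.3.3. Genes had to pass filterByExpr (minimum count 10, minimum total 15), and TMM gave factors of 0.986 to 1.02. Both genotypes entered 1 quasi-likelihood fit (robust) over all 7 libraries, with BH adjustment over 20600 genes and a call at an adjusted p under 0.05. The biological coefficient of variation was 11.2%. CPM used the TMM-scaled library sizes, and RPKM also the summed exon length of the TAIR10.1 annotation. Scripts were tested on simulated data.

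The deviations of same-numbered libraries from their genotype means correlated at 0.435, 0.189 and 0.274 over genes for replicates 1, 3 and 4. Differently numbered pairs lay between -0.371 and 0.192. The value of 0.192 was that of Col-0 replicate 3 with cepd replicate 4, so the check does not single out the replicate 3 pair. The replicate numbers were taken to pair the libraries, which is an assumption. The blocked fit kept cepd replicate 2, which has no partner and adds nothing to the difference between genotypes there.

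All 10 clock genes were named with values, and of the other lists the genes that passed the test. The genes most like TOC1 and CCA1 were the 5 with the highest correlation. The members and lists were chosen with earlier results of these data known. Alternatives were the block, DESeq2 1.42.0, limma-voom (limma 3.58.1), DESeq2 size factors, no or a stricter filter (1 CPM), nuclear genes only, a log2 fold change over 1 and leaving out each library. Figures were drawn with Python 3.11.15 and matplotlib 3.10.9. The authors' excluded Col-0 library was not analysed here.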

Additional observations from a re-analysis of the deposited data

How the results depend on the processing

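The number of clock genes called higher, 3, was also 3 with DESeq2, limma-voom, DESeq2 size factors, no filter, the stricter filter and nuclear genes only. It was 4 with the replicate block and 0 where a log2 fold change over 1 was also asked for. Leaving out 1 library gave 1 to 3, and the block without replicate 1, 3 or 4 gave 3 to 6. The number called lower, 0, was 1 with the replicate block, and 1 to 2 with the block without 1 paired replicate. The leave-out of paired replicates was chosen after the data were seen. Of the other clock genes, 8 were higher, 4 to 8 when 1 library was left out, and 6, 5 and 4 under the block without replicate 1, 3 and 4. The number lower, 0, was 1 with the replicate block and 1 under each of its leave-outs. Of the output genes, 2 were higher, 1 with no filter, 0 to 3 when 1 library was left out and 3 to 4 under the block without 1 replicate. Those lower, 0, were 2 with the replicate block, 2 with DESeq2, 1 with DESeq2 size factors, 1 with the stricter filter, 0 to 1 when 1 library was left out and 0 to 1 under the block without 1 replicate.

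PRR9 and PRR5 changed direction. PRR9 (-0.07) ran between -0.25 and 0.061 when 1 library was left out, with 0.061 without cepd replicate 4 and 0.045 without Col-0 replicate 1. PRR5 (0.15) ran between -0.0082, without Col-0 replicate 4, and 0.35, without Col-0 replicate 3, and was -0.013 under the block without replicate 4. The other 8 clock genes kept their direction in all settings. CCA1, PRR5 and LUX passed the test only with the block and without replicate 3 (edgeR BH-adjusted p = 0.0304, 0.0192 and 0.0426). The causes were not tested. Beyond the genes named with a blocked value, the block changed no call among the listed genes. A single harvest at an unstated hour, 3 Col-0 libraries and 1 mutant line limit these comparisons, and amplitude or phase of a rhythm cannot be read from them. PRR9, with 95 to 177 counts a library, is the least precise member. The p-values without the block measure the spread between pooled libraries of separate experiments. Those with the block rest on the spread left after differences between replicate numbers are taken out, under the assumed pairing.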
